A study of Mus musculus with 6 samples.

Results

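The Fraser complex genes are 6 mouse genes that encode a set of linked basement membrane proteins and their partners: Fras1, Frem1, Frem2, Frem3, Grip1 and Npnt. They were taken by gene symbol from the 37991 Ensembl gene rows of RNA sequencing counts, and each symbol matched 1 row. The set was chosen by the known biology of the family and by the counts of Frem2, which had been seen to differ between male and female libraries. The values of the 6 genes in that contrast are therefore given as a description, with no p. All 6 passed the filter on low counts.

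The libraries were made from Müllerian duct mesenchyme, the stroma of a duct that becomes oviduct and uterus in females and is lost in males under anti-Müllerian hormone (AMH). There were 3 male and 3 female libraries from embryos at embryonic day 14.5, with no other treatment or genotype contrast. Embryos of both sexes carried the alleles written as Amhr2Cre/+, R26R YFP/+ on a mixed strain background of C57BL/6J x 129/SvEv. In such embryos the Cre is driven by the locus of Amhr2, the AMH receptor gene, and cells with Cre activity or descended from such cells carry YFP, by which they were sorted. Each library pooled the cells of 2 to 7 embryos, and the replicates are called biological.

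In embryonic basement membranes, FRAS1, FREM1 and FREM2 assemble into one complex that holds an epithelium to the tissue below it. FRAS1 and FREM2 are made as membrane-anchored proteins, FREM1 is secreted, and in skin FREM1 comes from the mesenchyme and the other partners from the epithelium. GRIP1, a scaffold protein inside the cell, is needed to carry FRAS1 and FREM2 to the basal side. Nephronectin, the product of Npnt, is an integrin ligand whose place in the basement membrane depends on the complex in mice. Loss of FRAS1, FREM2 or GRIP1 causes Fraser syndrome in humans, with fused skin folds and absent kidneys.

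Libraries held 22511872 to 24749859 counts in genes. As the labels have it, Xist stood at most at 2.22 CPM (counts relative to library size, scaled by TMM factors) in male libraries and between 277.5 and 4729 CPM in female libraries, and Ddx3y between 17.1 and 159 CPM in male libraries and at most 0.0492 CPM in female libraries. Amhr2, the defining gene of the sorted cells, was present in every library, at 160.1 to 462 CPM in male and 324 to 784 CPM in female libraries. Counts outside genes made up 18.2%, 5.45% and 5.50% of uniquely placed counts in male replicates 1 to 3, and 17.5%, 3.53% and 8.65% in female replicates 1 to 3, so that the replicate 1 libraries of both sexes stood apart. In bulk RNA of sorted cells, fewer cells of a type and less RNA per cell cannot be told apart.

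Promoter sequence is shown for Frem2, the gene with the large difference, and for Npnt, a partner on the same chromosome with a small one. Both come from RefSeq (build GRCm38.p6, minus strand, 250 bases before to 50 after the gene start), and capitals mark each match on either strand to GGGCGG, the GC box bound by SP1 family factors, or to ATTGG, the inverted CCAAT box.

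Frem2, chr3:53657306-53657605: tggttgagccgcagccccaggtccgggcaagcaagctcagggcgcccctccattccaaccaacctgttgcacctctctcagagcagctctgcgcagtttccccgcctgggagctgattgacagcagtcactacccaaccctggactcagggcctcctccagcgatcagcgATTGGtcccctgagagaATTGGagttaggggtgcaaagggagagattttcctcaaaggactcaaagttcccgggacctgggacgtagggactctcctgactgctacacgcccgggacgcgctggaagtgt
Npnt, chr3:132950242-132950541: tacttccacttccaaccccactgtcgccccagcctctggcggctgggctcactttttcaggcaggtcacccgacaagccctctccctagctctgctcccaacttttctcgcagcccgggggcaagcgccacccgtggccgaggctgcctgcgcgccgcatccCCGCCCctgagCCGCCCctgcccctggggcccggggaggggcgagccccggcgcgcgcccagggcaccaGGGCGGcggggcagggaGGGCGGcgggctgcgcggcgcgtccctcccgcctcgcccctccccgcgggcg

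The Frem2 window held 2 ATTGG matches and no GGGCGG, and the Npnt window held 4 GGGCGG matches and no ATTGG, with no overlap between matches in either. Of 32851 promoter windows of this length, 35.7% held GGGCGG and 37.4% held ATTGG. Neither window held TATAAA (13.6% of windows), TAATTA, the core of many homeobox sites (5.29%), or GTCTAGAC, the palindromic SMAD motif (0.213%), each searched on both strands. GC content was 60.3% in the Frem2 window and 76.7% in the Npnt window, against a median of 52.7% over all windows, and the observed over expected ratio of CpG was 0.477 and 0.742 against a median of 0.384. Npnt has a second listed start, as have Frem1 and Grip1, and Frem3 has 1 listed start. The window of the second Npnt start held neither GGGCGG nor ATTGG, with a GC content of 68%. A match is a description of these letters and not a site.

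Frem2 was lower in male than in female libraries. Frem2, a membrane-anchored subunit of the complex, had 41.5, 35.3 and 23.1 CPM in male replicates 1 to 3, against 245.4, 138 and 255 CPM in female replicates 1 to 3. Every male library lay below every female library, and the highest male value was under the lowest female value by a wide margin. The means were 33.3 ± 9.35 CPM in male and 213 ± 64.7 CPM in female libraries (SD, n = 3 each). This was 6.39-fold lower in male, or −2.68 as a log2 ratio (SE 0.42). The counts behind these values were 548 to 1084 per male library and 2816 to 6679 per female library.

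Fras1, the membrane-anchored partner of Frem2, showed a smaller difference with overlapping libraries. Fras1 had 275, 180.4 and 126 CPM in male replicates 1 to 3, against 353, 206 and 386 CPM in female replicates 1 to 3. Male replicate 1 lay above female replicate 2, so the sexes overlapped. The means were 194 ± 75.1 CPM in male and 315 ± 95.9 CPM in female libraries, with a log2 fold change of −0.70 (SE 0.43). An antisense gene, Gm42604, overlaps exons of Fras1 in GENCODE M21 but has no row in the counts, and the library kit does not mark strand.

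Frem1, the secreted subunit, was the most abundant of the 6 genes and the most variable within each sex. Frem1 had 871, 256 and 279 CPM in male replicates 1 to 3, against 1444, 355 and 911 CPM in female replicates 1 to 3. The highest male library was close to the middle female library, and the highest over lowest ratio was 3.40 among male and 4.06 among female libraries. The means of 469 ± 348 CPM in male and 903 ± 544 CPM in female libraries gave a log2 fold change of −0.95 (SE 0.70), which was within the spread between libraries.

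Frem3, a relative of Frem1 and Frem2, was barely detected. Frem3 had 1.07, 1.19 and 0.590 CPM in male replicates 1 to 3, against 0.845, 0.639 and 0.640 CPM in female replicates 1 to 3. These rest on 66 male and 52 female counts in all, the sexes overlapped, and the log2 fold change was 0.42 (SE 0.44). At this depth no difference in Frem3 was detectable.

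Grip1, the scaffold for FRAS1 and FREM2, was expressed at a low level with overlap between the sexes. Grip1 had 22.3, 7.61 and 14.0 CPM in male replicates 1 to 3, against 28.3, 10.1 and 18.8 CPM in female replicates 1 to 3. In each sex replicate 1 was the highest and replicate 2 the lowest. The log2 fold change was −0.39 (SE 0.55), and without female replicate 1 it was 0.014, so no direction held in every fit. Between same-numbered libraries the log2 ratio was −0.35, −0.41 and −0.43 for replicates 1 to 3. Replicate numbers did not pair the libraries over all genes, so these ratios do not settle the direction of Grip1.

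Npnt, the integrin ligand, was lower in male by a small margin. Npnt had 33.5, 24.6 and 26.6 CPM in male replicates 1 to 3, against 38.5, 44.2 and 53.6 CPM in female replicates 1 to 3. The sexes did not overlap, although male replicate 1 and female replicate 1 were close. The means were 28.2 ± 4.65 CPM in male and 45.4 ± 7.59 CPM in female libraries, a log2 fold change of −0.69 (SE 0.31). Its highest over lowest ratio was 1.36 among male libraries, the smallest of the 6 genes, and 1.39 among female libraries.

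**Figure D1:**
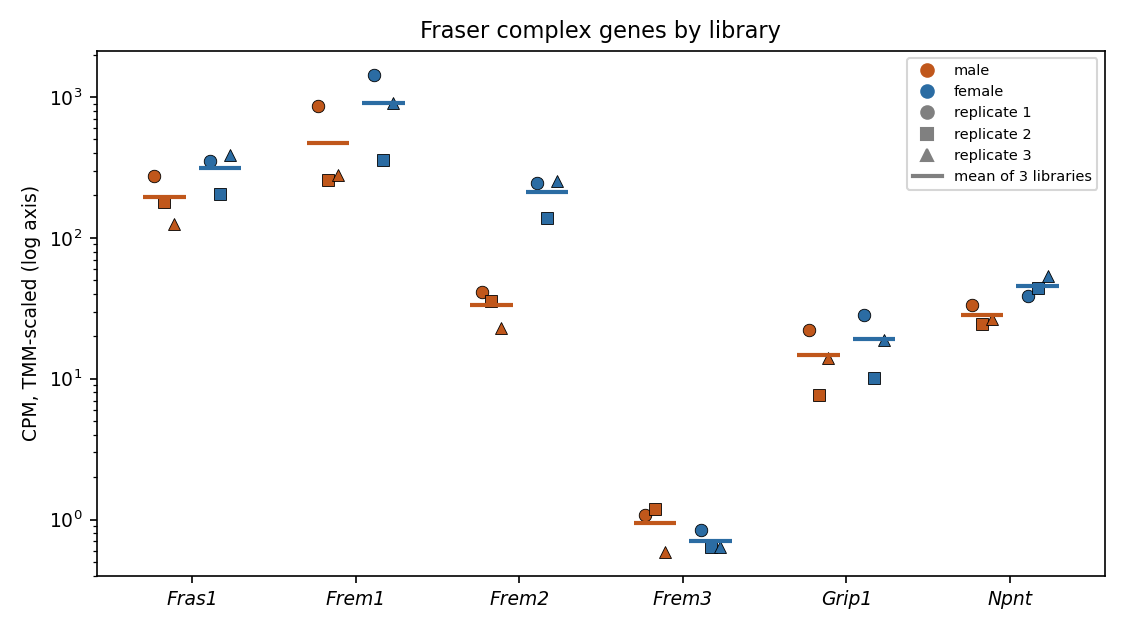
CPM (log axis) of the 6 Fraser complex genes in each male and female library, with marker shapes for replicates 1 to 3 and a line at the mean of 3 libraries. Frem2 shows the widest gap between the sexes, with means of 33.3 CPM in male and 213 CPM in female libraries, and Fras1, Frem1, Frem3 and Grip1 overlap between the sexes.

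Of the 6 genes, 1 was called lower in male and none higher (edgeR's quasi-likelihood test, Benjamini-Hochberg adjusted p threshold 0.05 over the 15227 genes tested), where 0.387% of all genes tested were called lower and 0.841% higher (1.23% in either direction). With a GC content and length offset, 2.84% of all genes were called lower and 2.95% higher, and again 1 of the 6. The gene called was Frem2, on whose difference the set was put together, so nothing is read from this count. The sexes did not overlap in 2 of the 6, Frem2 and Npnt, both lower in male, against 7.27% of all genes tested that were lower without overlap. The log2 fold change was negative in 5 of the 6 genes, with a median of −0.69, beside a median of −0.01 over all genes tested. Frem2 is part of these comparisons too, so nothing is read from them either. The Frem2 call was lost when any 1 of the 6 libraries was left out, while its log2 fold change stayed between −2.91 and −2.46 over those 6 fits. The log2 fold change of Frem2 was −2.76 when the replicate 1 libraries of both sexes were left out together, a setting added after the data were seen.

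**Figure D2:**
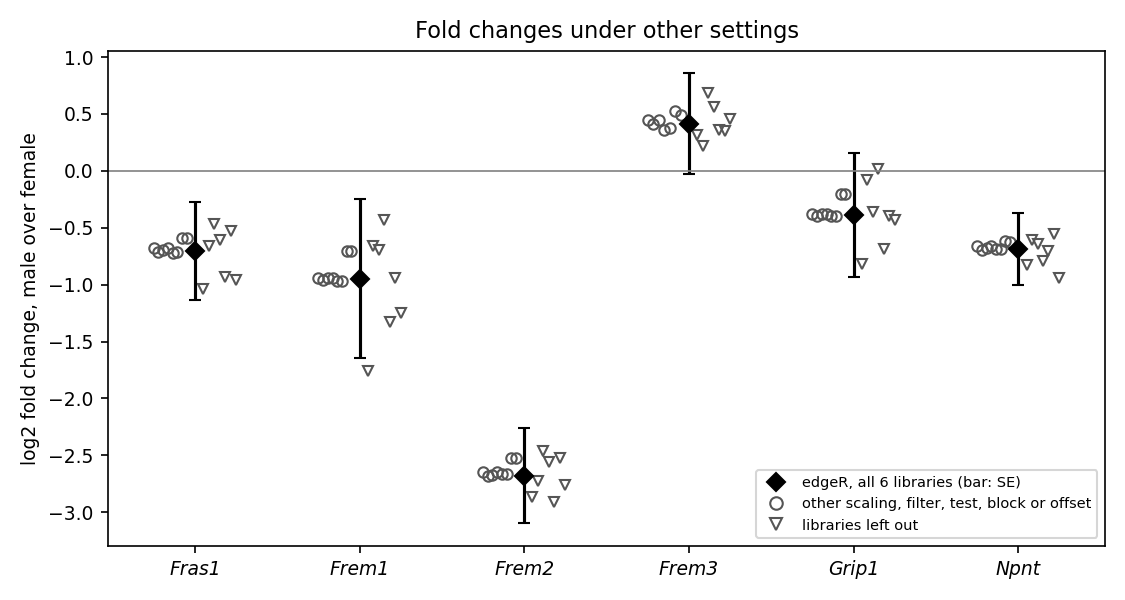
Log2 fold changes, male over female, of the 6 Fraser complex genes: diamonds are the edgeR fit of all 6 libraries with its SE, circles are other scalings, filters, tests, a replicate block or a GC content and length offset, and triangles are fits with libraries left out. Frem2 lies between −2.91 and −2.46 under every setting shown, and Grip1 crosses 0 without female replicate 1.

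The proportion of Frem2 to Fras1 was steady within each sex and differed between them. For every 100 counts of Fras1, Frem2 had 15.1, 19.6 and 18.3 counts in male replicates 1 to 3, against 69.5, 67.3 and 66.1 counts in female replicates 1 to 3. This ratio is taken within a library and does not depend on the scaling between libraries. It averaged 17.7 ± 2.31 in male and 67.6 ± 1.73 in female libraries (SD, n = 3 each), and within each sex its spread was smaller than that of either gene's CPM. The transcripts of the pair are alike in GC content, at 52.1% for Fras1 and 51.8% for Frem2, and both are long, with 15848 and 12348 bases in the longest transcript. Since Frem2 was picked for its difference, the gap between the sexes in this ratio is again a description. It shows unequal change of the pair and not that Fras1 did not change.

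No other member kept such a steady proportion to Fras1. For every 100 Fras1 counts, Frem1 had 142 to 317 counts in male and 173 to 409 counts in female libraries. Npnt had 12.2 to 21.1 counts in male and 10.9 to 21.5 counts in female libraries, with means of 15.6 ± 4.76 and 15.4 ± 5.45. Grip1 had 4.22 to 11.1 counts in male and 4.88 to 8.02 counts in female libraries. Frem1, Npnt and Grip1 thus overlapped between the sexes relative to Fras1. Frem3, at 0.390 to 0.658 counts in male and 0.166 to 0.311 counts in female libraries, did not overlap, on few counts.

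**Figure D3:**
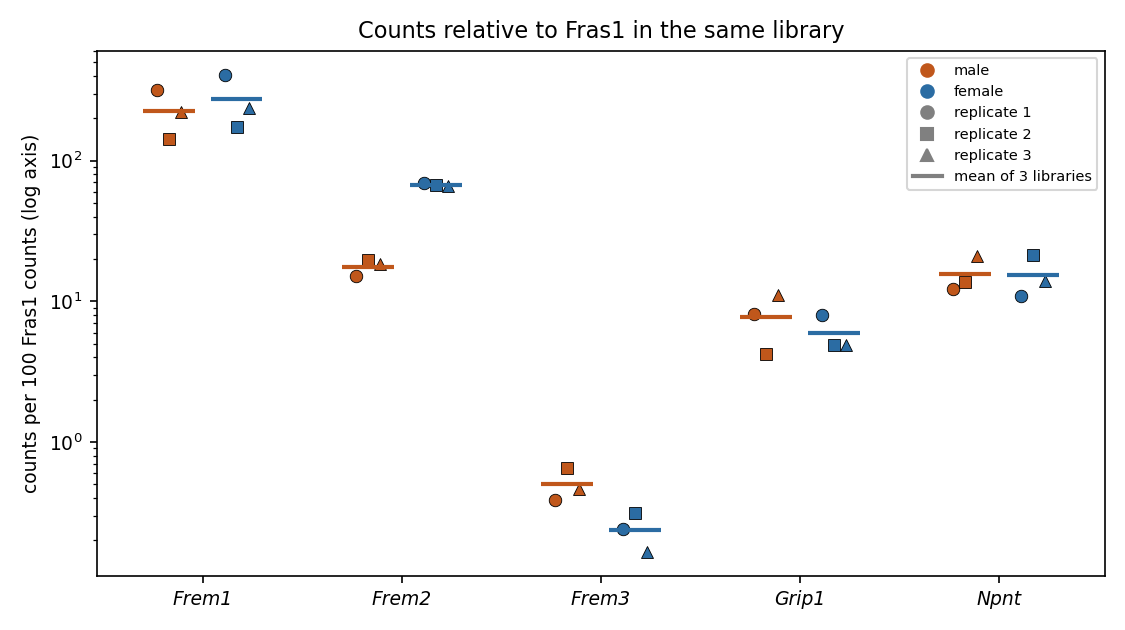
Counts of 5 Fraser complex genes per 100 counts of Fras1 in the same library (log axis), by sex and replicate, with a line at the mean of 3 libraries. The 3 male points of Frem2 lie between 15.1 and 19.6 and the 3 female points between 66.1 and 69.5, while Frem1, Grip1 and Npnt overlap between the sexes.

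Levels between genes were compared as CPM per kilobase of the longest transcript. In male libraries the order of mean levels was Frem1 at 48.4 ± 36.0, Fras1 at 12.2 ± 4.74, Npnt at 6.11 ± 1.01, Frem2 at 2.70 ± 0.758, Grip1 at 2.68 ± 1.35 and Frem3 at 0.149 ± 0.0496 CPM per kb. Frem2 and Grip1 overlapped in male libraries, and no other neighbours in this order did. In female libraries the order was Frem1 at 93.2 ± 56.2, Fras1 at 19.9 ± 6.05, Frem2 at 17.2 ± 5.24, Npnt at 9.84 ± 1.64, Grip1 at 3.50 ± 1.67 and Frem3 at 0.111 ± 0.0186 CPM per kb. There Fras1 overlapped with Frem2 and Frem2 with Npnt. Frem2 thus stood beside Grip1 in male libraries and beside Fras1 in female libraries. Among all genes tested, the mean level per kb of Frem1 was at percentile 89.5 in male and 95.8 in female libraries, and that of Frem2 at percentile 30.5 in male and 71.5 in female libraries.

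**Figure D4:**
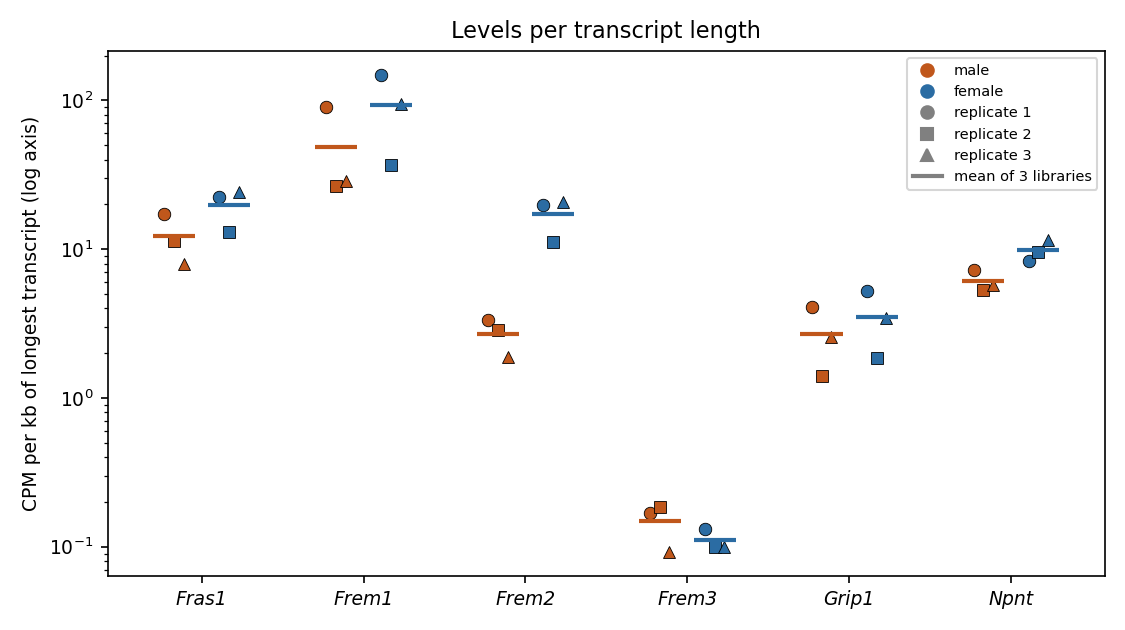
CPM per kilobase of the longest transcript (log axis) of the 6 Fraser complex genes in each library, with a line at the mean of 3 libraries per sex. Frem1 lies highest and Frem3 lowest in both sexes, and Frem2 lies beside Grip1 in male libraries, at a mean of 2.70, and beside Fras1 in female libraries, at a mean of 17.2.

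Within the FRAS1 and FREM family the secreted subunit made up most of the level per kb. Frem1 held 81.2%, 64.7% and 74.4% of the summed level of Fras1, Frem1, Frem2 and Frem3 in male replicates 1 to 3, against 77.9%, 60.1% and 67.6% in female replicates 1 to 3. Frem2 held 3.03%, 7.00% and 4.83% in male replicates 1 to 3, against 10.4%, 18.4% and 14.8% in female replicates 1 to 3. Frem3 held at most 0.455% in any library. The share of Frem2 did not overlap between the sexes and those of Fras1 and Frem1 did.

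Among genes for proteins that bind the complex or lie close to it, Col7a1 fell and Grip2 rose in male. Col7a1, which encodes the collagen of anchoring fibrils below epithelial basement membranes, fell to 16.1, 14.2 and 13.6 CPM in male replicates 1 to 3, against 112, 118 and 124 CPM in female replicates 1 to 3. The libraries of each sex were close to each other and far from those of the other sex. Col7a1 was 8.06-fold lower in male, or −3.01 on the log2 scale (SE 0.31, edgeR adjusted p = 0.0148). Grip2, a relative of Grip1, rose to 9.52, 11.6 and 9.69 CPM in male replicates 1 to 3, against 1.47, 1.38 and 2.08 CPM in female replicates 1 to 3, or 2.64 on the log2 scale (SE 0.37, edgeR adjusted p = 0.0281). The sexes overlapped in Grip1 and not in Grip2.

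These were the 2 genes called among 11 tested partners and relatives of the complex, 1 lower and 1 higher in male, where 0.387% of all genes tested were called lower and 0.841% higher. The median log2 fold change of the 11 was −0.08, beside −0.01 over all genes tested. Vwa2, which encodes AMACO, a basement membrane protein that binds the complex in mice, was at 0.612, 1.78 and 1.47 CPM in male replicates 1 to 3, against 3.86, 10.3 and 6.44 CPM in female replicates 1 to 3. The sexes did not overlap, but Vwa2 missed the threshold at −2.41 on the log2 scale (SE 0.58, edgeR adjusted p = 0.144), and it passed in 5 of 15 alternative settings. Hmcn1, which encodes the large matrix protein hemicentin, had −1.42 (SE 0.82) with overlapping libraries. Fbln2 and Egfl6, also among the 11, went the other way with overlapping libraries, at 1.27 (SE 0.53) and 0.77 (SE 0.44). In all, 6 of the 11 log2 fold changes were negative and 5 positive. Vwa2, Hmcn1, Fbln2 and Egfl6 were singled out after their values were seen. The calls of Col7a1 and Grip2 were lost without male replicate 2 or 3 and without female replicate 1, 2 or 3, with log2 fold changes between −3.13 and −2.95 and between 2.53 and 2.85 over 15 alternative settings.

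Among core basement membrane genes Col15a1 rose in male. Of 29 tested genes for laminins, type IV collagens, nidogens and other components, 1 was called higher and none lower, where 1.23% of all genes tested were called in either direction, so that the count is near the background. The median log2 fold change of the 29 was −0.19. Col15a1, which encodes a collagen of basement membrane zones, was at 129, 169 and 148 CPM in male replicates 1 to 3, against 6.28, 6.93 and 6.40 CPM in female replicates 1 to 3. On the log2 scale Col15a1 rose by 4.50 (SE 0.34, edgeR adjusted p = 0.0104). The antisense gene Gm12426 overlaps exons of Col15a1, and it held 25 counts over the 6 libraries. The call was lost without male replicate 3 and without female replicate 2 or 3.

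Counting Col15a1, 5 core genes were lower and 2 higher in male without overlap between the sexes, where 7.27% and 6.47% of all genes tested were. Among those lower were Nid1, a nidogen gene, at −1.04 (SE 0.35), and Lama1, a laminin chain of early epithelial basement membranes, at −0.82 (SE 0.29). The gene higher besides Col15a1 was Nid2, also a nidogen gene, at 0.64 (SE 0.30), so the nidogen genes went opposite ways. Papln, which encodes the matrix protein papilin, had −1.48 (SE 0.38, edgeR adjusted p = 0.165). Lama1 passed in 2 of 15 alternative settings, and Nid1 and Papln in 3 each. Nid1, Nid2, Lama1 and Papln were named after their values were seen. Ntn4 had too few counts to be tested.

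**Figure D5:**
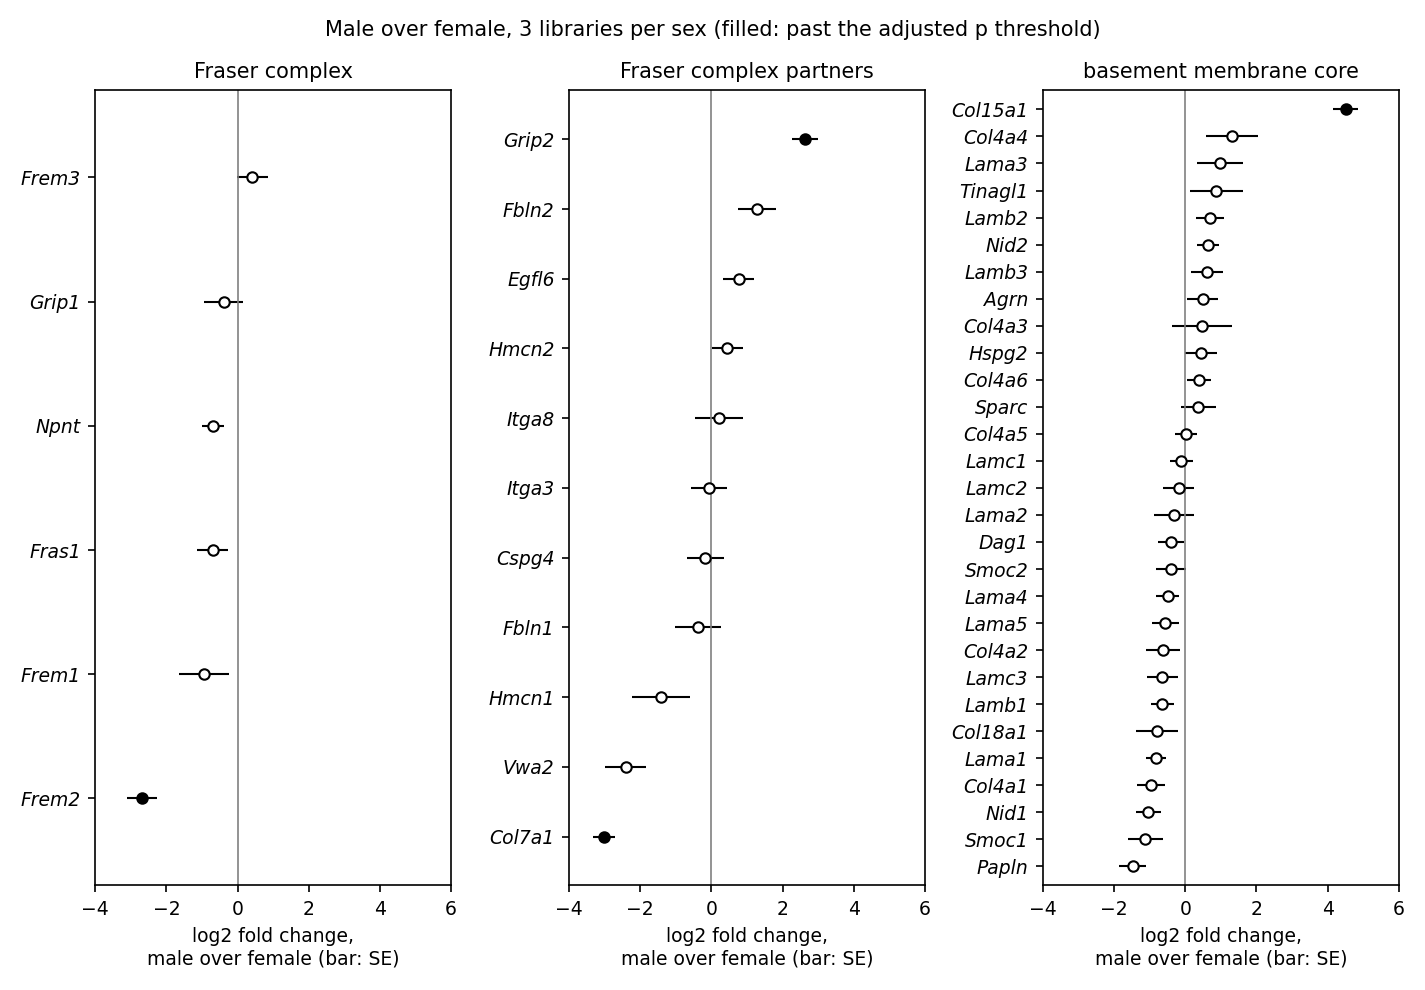
Log2 fold changes, male over female, with SE (n = 3 libraries per sex) for the Fraser complex genes, their partners and the core basement membrane genes, where filled points passed the adjusted p threshold. Frem2 (−2.68) and Col7a1 (−3.01) lie lowest in their panels, Grip2 (2.64) and Col15a1 (4.50) lie highest in theirs, and the core genes have a median of −0.19.

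Among the receptor chains of nephronectin, Itga8, the integrin chain that binds nephronectin in the developing kidney, was at 0.22 (SE 0.68) for log2 male over female and ranged from 41.2 to 169.5 CPM in male and from 32.4 to 135 CPM in female libraries. Itgb1, its partner chain, averaged 372 ± 185 CPM in male and 372 ± 133 CPM in female libraries. Of 11 tested integrin chains and other ligands of the same kind, edgeR called none, with 1 at an unadjusted p under 0.05 and a median log2 fold change of 0.22, while DESeq2 called 1 and limma-voom none. Over all genes tested edgeR called 1.23%, DESeq2 5.06% and limma-voom 1.58%, so these counts are near the background and say nothing particular about the 11 genes. The genes with the smallest p were Tnc, the matrix protein tenascin-C, at 1.47 (SE 0.35, edgeR adjusted p = 0.128) and Itga5, a fibronectin receptor chain, at 0.88 (SE 0.54). Vtn and Itgb6 had too few counts to be tested.

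Markers of other cell types were measured in the same libraries as Frem2. The summed CPM of 12 duct epithelium genes was 204.5, 529 and 500.0 in male replicates 1 to 3, against 326, 820 and 547 in female replicates 1 to 3, with overlap between the sexes (exact two-sided permutation p = 0.4, adjusted over 7 lists p = 0.4). Krt18 made up the most of this sum, at 110, 350 and 192 CPM in female replicates 1 to 3. Of the 10 of these markers tested, 1 was called, lower in male, where 0.387% of all genes tested were called lower. This was Epcam, an epithelial adhesion gene, which fell to 2.58 ± 0.477 CPM in male, against 13.7 ± 3.08 CPM in female libraries (SD, n = 3 each, edgeR adjusted p = 0.0381). Cldn4 and Emx2 were lower in male without overlap, at −3.05 and −1.28 on the log2 scale, and did not pass. The others tested overlapped between the sexes: the keratin genes Krt8, Krt18 and Krt19 were at −0.18, −0.24 and −0.40, Cldn6 at −0.29, Pax8 at −0.04, Cdh1 at 0.19 and Wnt7a at 0.63. Pax2 and Lhx1 were under 1 CPM in every library. The mesothelium sum over 6 genes with a row, of which Wt1 made up the most, was 510 to 547 CPM in male and 589 to 719 CPM in female libraries (exact permutation p = 0.1, which is the lowest that 3 against 3 libraries can give, and 0.14 after adjustment). The kidney progenitor sum was 61.5 to 104 CPM in male and 132 to 209.6 CPM in female libraries with the same p, and it followed Sall1, which made up the most of it (log2 −1.08, edgeR adjusted p = 0.365). The gene of this list that was called went the other way: Gdnf rose to 2.90 ± 0.203 CPM in male, against 0.410 ± 0.132 CPM in female libraries (SD, n = 3 each, edgeR adjusted p = 0.0376). Six2 and Foxd1, which mark kidney progenitors, were under 1 CPM throughout. The part of these cell types in the Frem2 difference was not tested.

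Sertoli cell genes summed to 76.6 to 138 CPM in male and 24.1 to 63.0 CPM in female libraries. Of 7 genes, 3 were called, all higher in male, where 0.841% of all genes tested were called higher. The genes called were Amh, Sox9 and Cst9, at 4.71, 2.55 and 6.44 on the log2 scale (edgeR adjusted p = 0.0194, 0.0308 and 0.0226). Dhh and Aard, at 5.95 and 1.07, were higher without overlap, as were 6.47% of all genes tested, and did not pass. Cst9 and Dhh had at most 2 counts in any female library. Gata4 and Ptgds, at −0.03 and 0.21 on the log2 scale, overlapped between the sexes. The pregranulosa sum, 275 to 545 CPM in male and 110.4 to 189 CPM in female libraries, was mostly Wnt4 (log2 1.96, edgeR adjusted p = 0.127). Of the other pregranulosa genes, Irx5, Foxl2 and Irx3 were lower in male without overlap, as were 7.27% of all genes tested. Irx5 fell by 2.71 on the log2 scale (edgeR adjusted p = 0.0478), and Foxl2 and Irx3, which did not pass, were at −2.34 and −3.73. Lgr5, Fst and Bmp2 overlapped between the sexes, at −1.35, −0.85 and 0.13. The endothelium genes, mostly Kdr (log2 1.65, edgeR adjusted p = 0.241), summed to 168 to 333 CPM in male and 60.3 to 97.5 CPM in female libraries. The other endothelium genes overlapped between the sexes. Pecam1 was at −0.40 on the log2 scale, Cdh5 at 0.33, Tie1 at 0.63, Emcn at 0.30, Tek at 1.37 and Egfl7 at 1.09. Each of these 3 sums had an exact permutation p = 0.1 and an adjusted p = 0.14. The marker genes given with values of their own were singled out after their values were seen. Müllerian mesenchyme genes, mostly Vim, summed to 2556 to 3237 CPM in male and 2057 to 2587 CPM in female libraries (exact permutation p = 0.2, adjusted p = 0.233). None of these genes was called, but they did not move together. Hoxa10, Hoxa11 and Osr1 were lower in male without overlap, at −1.16, −1.16 and −2.16 on the log2 scale. Pdgfra was higher without overlap, at 1.07, and Amhr2, Wnt5a, Tcf21, Hoxa13 and Vim overlapped.

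The genes whose log2 CPM was most like that of each member over the 6 libraries, by Pearson's r with no p, differed from member to member. For Frem2 they were Nuak1, Peli2 and Ccdc88c, with r of 0.998, 0.997 and 0.996, and none of these was called between the sexes. For Fras1 they were Amotl1, Rere and Gpr161, with r of 0.995, 0.989 and 0.988. For Frem1 they were Asxl3, BC067074 and Ppargc1b, each at 0.999, and for Grip1 they included Pi4k2b and Pcgf6, at 0.9995 and 0.999. For Npnt they were Susd1, Fam20b and Col11a2, at 0.991, 0.984 and 0.978, and for Frem3, on few counts, Gm10602, Ikbkg and Sspo, at 0.977, 0.968 and 0.952. No member was among the 3 genes most like another member.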

How the data were processed

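Each deposited file lists raw counts by Ensembl gene, followed by 5 summary lines. The submitters' processing notes name TopHat, HTSeq, DESeq and the build mm9 but no version or role. Annotation release and strand setting: not given in the sources used here. Per the labels' protocols, each library was made with a TruSeq kit from at least 100 ng of RNA and read as paired 76-base reads. The summary lines entered neither library sizes nor tests, and among them counts outside genes were 3.53% to 18.2% and counts on more than 1 gene 6.51% to 10.0% of uniquely placed counts.

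Symbols, transcript lengths, GC content and which genes overlap came from GENCODE M21 (GRCm38), whose build differs from mm9, so none of its positions were set against the counts. Of 37991 identifiers, 32919 had a symbol. Promoter windows came from RefSeq and were matched by symbol for 5 of the 6 genes, Fras1 having no entry. The filter (filterByExpr), the TMM scaling and the test were those of edgeR 4.0.16 in R 4.3.3 (two-sided quasi-likelihood test with robust fitting and no covariate besides sex, Benjamini-Hochberg over 15227 genes). Log2 fold changes are male over female, and each SE is the size of that change divided by the root of its F statistic. CPM used TMM library sizes.

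The members and lists were chosen with earlier results of these data known. Genes named were the 6 members, up to 6 called genes of each list or the 2 with the smallest p, and the 3 genes most like each member, except those said to be named after their values were seen. A gene among those most like Grip1 is not reported here. Alternatives were other scalings and filters, DESeq2 1.42.0, limma-voom (limma 3.58.1), a replicate block, a GC content and length offset (splines with 5 degrees of freedom, 96.4% of tested genes with a value) and leaving out each library. Leaving out the replicate 1 libraries of both sexes was added after the data were seen. Since nothing says that the pools of a sex came from separate litters, p-values measure the spread between these samples, which may be partly technical. The 6 libraries were distinct: no pair had equal counts in more than 1.12% of tested genes.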

Additional observations from a re-analysis of the deposited data

How the results depend on the processing

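The log2 fold changes of Frem2, Fras1, Frem1, Frem3 and Npnt kept their sign in every setting in which each was tested (Frem3 had no value under the filter of 1 CPM in 3 libraries), and so did those of Col7a1, Grip2, Col15a1, Vwa2, Hmcn1, Nid1, Lama1, Papln, Tnc and Itga5. Leaving out 1 library gave −0.82 to 0.014 for Grip1, with the sign turned without female replicate 1, and −0.43 to 0.73 for Itga8, with the sign turned without male replicate 1 or female replicate 2.

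Of all genes tested, 187 were called by edgeR (128 higher and 59 lower in male), with 771 by DESeq2 (444 and 327) and 882 with the GC content and length offset (449 and 433). Without 1 library the number was 0 to 173, with 884 to 1504 genes at an unadjusted p under 0.05 in the 5 fits other than that without male replicate 1. Of the 6 Fraser complex genes 0 were called without any 1 library (1 or 2 at an unadjusted p under 0.05, edgeR), of the 11 tested partners 0 to 2 and of the 29 core genes 0 to 1, and fewer samples are part of each such fit. DESeq2 called 2 core genes and 1 integrin or ligand gene. The offset called 4 partners, 4 core genes and 1 integrin or ligand gene. Leaving out replicate 1 in both sexes gave 354 genes. The causes were not tested.

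Replicate numbers did not pair the libraries by the deviations of same-numbered male and female libraries, which correlated over 15227 genes at 0.926, 0.855 and −0.059, and male replicate 3 correlated best with female replicate 2. With a replicate block 4164 genes were called (27.3% of those tested), among them 4 Fraser complex genes (Frem2, Fras1, Frem1 and Npnt, all lower in male), 7 partners, 18 core genes and 5 integrin or ligand genes. With the block and the offset 4456 genes were called (29.3%), with 4 Fraser complex genes, 8 partners, 22 core genes and 4 integrin or ligand genes. With exon union lengths the mean level per kb over the 6 libraries went from 70.8 to 49.1 for Frem1 and from 3.09 to 2.09 for Grip1. It went from 16.0 to 14.4 for Fras1, from 9.97 to 9.29 for Frem2 and from 7.97 to 7.33 for Npnt. Frem3 kept its value, and the order of these means stayed the same. Frem3 rests on 14 to 28 counts in male and 13 to 23 in female libraries, which limits it to large differences.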

Other observations

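Within each sex the members differed between replicate 1 and replicate 2 by unequal amounts. Frem1 was higher in replicate 1 by 1.76 on the log2 scale in male and 2.02 in female libraries, and Grip1 by 1.53 and 1.47, at percentiles 77.1 to 87.0 of all genes tested. Fras1 was higher by 0.61 in male and 0.78 in female libraries, Frem2 by 0.23 and 0.82, and Npnt by 0.44 in male libraries and lower by 0.20 in female libraries. Over all genes tested the median difference was 0.07 in male and −0.06 in female libraries. Frem1 and Grip1 have the lowest transcript GC content of the 6 genes, at 47.7% and 47.5%, against 50.2% to 52.1% for the others. After the GC content and length trend of each library was taken out, the differences in male and female libraries, in that order, were 0.72 and 0.83 for Frem1, 0.82 and 0.81 for Grip1, 0.36 and 0.05 for Fras1, −0.06 and 0.18 for Frem2, and 0.47 and −0.16 for Npnt, with a median over all genes tested of 0.17 and 0.07. The differences of Fras1 and Frem2 also became smaller in size in both sexes. These genes have the highest GC content and the longest transcripts of the 6. The parts of GC content and of length were not tested apart.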
